A study of Drosophila melanogaster with 12 samples.

Results

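Worniu (wor), escargot (esg) and scratch (scrt) are 3 Drosophila genes of the Snail family. They were taken by their symbols from the deposited tables, which hold 15339 named genes, and all 3 members were found in both tables. The cells were type II neuroblasts from the central nervous system of Drosophila melanogaster larvae aged 24, 36, 50 and 84 h from hatching, and each age had 3 libraries, 12 in all. Newly hatched larvae had been synchronised and their dissected brains digested, and GFP-labelled cells were sorted and pooled, 93 to 132 cells a library. No treatment or mutant allele is named in the labels, so age is the 1 factor that sets the groups apart. The sources used here do not give the strain, the driver behind the GFP label or whether libraries of 1 age came from separate dissections. The p-values therefore reflect only library-to-library spread, which can be technical.

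Snail-family proteins bind DNA through zinc fingers and act mostly as repressors of transcription. In the fly, Snail (sna), wor and esg act together in embryonic neuroblasts, where they help to set up asymmetric cell division and the division cycle. Wor is a marker of neuroblasts in embryo and larva and is needed for larval neuroblasts to keep dividing. Esg is best known for keeping intestinal stem cells and imaginal cells in their undifferentiated, diploid state, and scrt is a neural member of the family that promotes neuronal fates.

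The 12 libraries held 4512098 to 8391731 gene counts and 8952 to 10797 detected genes. A floor of 3 counts corresponded to 0.447 to 0.666 CPM (counts scaled to library size, here after adjustment by trimmed mean of M values, TMM). All 3 members passed the filter on low counts, as did 7978 genes in all. Most type II markers fitted the label. Averages over the ages ran from 90.0 to 101 CPM for btd, 181 to 328 CPM for dpn, 401 to 786 CPM for pnt and 451 to 666 CPM for mira. Ase, which type II neuroblasts lack, averaged 3.28 to 7.68 CPM. Pros, kept low in these cells, averaged 34.0 to 92.1 CPM. At 50 h its CPM was near that of btd, 93.0 CPM, but CPM does not allow for transcript length. In TPM, which divides by transcript length, pros averaged 6.05 and btd 85.0 at 50 h. The TPM of pros has a limit: replicate 3 of 36 h had 319 counts of it but was listed at 0 TPM. Markers of neurons and glia were not at 0, and their values stand further below. In sorted pools, fewer cells with a transcript and less of it per cell cannot be told apart.

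The members took separate courses. Wor averaged 446 to 556 CPM at the 4 ages, esg was 9.33-fold lower at 84 h than at 24 h, and scrt was low at 36 h and higher at the ages on either side. A difference between any of the ages passed the test for 2 of the 3 members, esg and scrt (adjusted p = 0.000123 for esg, 0.00088 for scrt and 0.641 for wor, edgeR quasi-likelihood F test with Benjamini-Hochberg adjustment over all genes tested). Of all genes tested, 19.5% passed the same test.

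Wor, the neuroblast marker, was the most abundant member. It had 509, 582 and 579 CPM in the 24 h libraries, 313, 586 and 527 CPM at 36 h, 384, 439 and 515 CPM at 50 h, and 348, 592 and 627 CPM at 84 h. The ranges of all 4 ages overlapped, and the lowest library at each age was replicate 1. Means were 556 ± 41.5, 475 ± 144, 446 ± 65.9 and 522 ± 152 CPM at 24, 36, 50 and 84 h (SD, n = 3 each). None of the 6 pairwise comparisons passed for wor. The log2 fold change of wor at 84 h against 24 h was -0.09, with a 95% interval of -0.54 to 0.36 (adjusted p = 0.814), which spans 0.688 to 1.28 as a ratio. Its largest estimate in size was that of 50 h against 24 h, a log2 fold change of -0.32 with an interval of -0.77 to 0.13 (adjusted p = 0.344). Over the 6 comparisons the intervals of wor reached down to a ratio of 0.587, at 50 h against 24 h, and up to 1.60, at 84 h against 50 h. The direction of wor at 84 h against 24 h depended on the scaling: with library sizes set by the ERCC spike-in RNA its log2 fold change was 1.48 (adjusted p = 0.055), and at 50 h against 24 h it was 1.52 (adjusted p = 0.0273). That scaling moved the median of all genes by 1.48 and 1.98 in those comparisons, and relative to this shift wor stood at 0.00 and -0.45. Gene counts per ERCC count were uneven within ages, with 832, 289 and 253 in the 50 h libraries and 166, 432 and 293 at 84 h. This unevenness enters the spread of every gene under ERCC scaling, so a call lost there may not be particular to the gene.

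Esg fell with age. It had 97.1, 78.7 and 115 CPM in the 24 h libraries, 38.9, 47.1 and 48.2 CPM at 36 h, 8.05, 19.9 and 36.1 CPM at 50 h, and 3.95, 13.1 and 14.0 CPM at 84 h. Each 36 h library was below each 24 h library and each 50 h library below each 36 h library, while the 50 h and 84 h ranges overlapped. Of all genes tested, 16% had no overlap, in either direction, at 36 h against 24 h and 25.3% at 50 h against 36 h. The spread between libraries of 1 age was widest at 50 h on a ratio scale, from 8.05 CPM in replicate 1 to 36.1 CPM in replicate 3. Replicate 1 was the lowest for esg at 36, 50 and 84 h, and also the lowest for wor at these ages. The lowest esg count was 23, at 84 h, whose exact Poisson 95% interval of 14.6 to 34.5 covers counting error only.

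The change in esg passed in the comparisons that skip an age. It was 9.33-fold lower at 84 h than at 24 h (log2 fold change -3.22 ± 0.45, SE; adjusted p = 5.39e-05), with means of 10.35 ± 5.56 CPM at 84 h and 97.1 ± 18.4 CPM at 24 h (SD, n = 3 each). It was 1 of the 3 members called there, beside 18.9% of all genes. At 50 h against 24 h esg was 4.56-fold lower (log2 fold change -2.19 ± 0.43, adjusted p = 0.00192), again 1 of 3 members beside 16.4% of all genes. Without replicate 3 of 50 h, that log2 fold change was -2.81. Over the 12 edgeR fits that left out a library it ran from -2.81 to -1.79, with an adjusted p of at most 0.0142. Esg was 4.31-fold lower at 84 h against 36 h (log2 fold change -2.11 ± 0.44, adjusted p = 0.00371), and both esg and scrt were called there, 2 of 3 members beside 9.60% of all genes.

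No single step between neighbouring ages passed for esg in the fit used here, though some did in other fits. Its log2 fold changes were -1.12 ± 0.41 at 36 h against 24 h (adjusted p = 0.207), -1.07 ± 0.42 at 50 h against 36 h (adjusted p = 0.18) and -1.03 ± 0.44 at 84 h against 50 h (adjusted p = 0.319), all from the edgeR test. The 3 estimates lay close to each other, each near a 2-fold lower level. The step at 50 h against 36 h passed without replicate 3 of 50 h (adjusted p = 0.0329), and the step at 84 h against 50 h passed without replicate 1 of 50 h (adjusted p = 0.0439). With no filter on low counts all 3 steps passed (adjusted p = 0.00395 at 36 h against 24 h, 0.00379 at 50 h against 36 h and 0.0173 at 84 h against 50 h). At 84 h against 50 h none of the 3 members was called by edgeR, DESeq2 or limma on TPM, beside 3.06% of all genes by edgeR, and 1 member, esg, had an unadjusted p under 0.05. With ERCC scaling esg kept its direction in all 6 comparisons but passed in none. Its log2 fold change at 84 h against 24 h was then -1.64 (adjusted p = 0.0618), which is -3.12 relative to the shift of the median gene.

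Scrt, the neural member, had its lowest level at 36 h. Its values were 12.8, 24.8 and 28.5 CPM in the 24 h libraries, 3.33, 3.69 and 7.09 CPM at 36 h, 14.2, 16.1 and 34.4 CPM at 50 h, and 31.4, 26.3 and 29.0 CPM at 84 h. All 3 of the 36 h libraries were below the other 9, and the ranges of 24, 50 and 84 h overlapped. Of all genes tested, 16% had no overlap at 36 h against 24 h, 25.3% at 50 h against 36 h and 30.1% at 84 h against 36 h. Each share is for a single comparison in either direction, and the share of genes with all 36 h libraries lowest was not computed. Counts were few: 15, 17 and 36 at 36 h against 86, 162 and 134 at 24 h, and the exact Poisson 95% interval of the lowest, 15, was 8.40 to 24.7 counts.

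At 36 h scrt averaged 4.70 ± 2.07 CPM, against 22.1 ± 8.22 CPM at 24 h (SD, n = 3 each). The fall was 4.64-fold (log2 fold change -2.21 ± 0.43, SE; adjusted p = 0.00964), and scrt was 1 of 3 members called, beside 0.902% of all genes. The call was lost, at a similar size of change, without replicate 1 of 36 h (log2 fold change -2.02, adjusted p = 0.06), without replicate 2 of 36 h (-2.06, adjusted p = 0.0605) and with sorted-cell number in the fit (-2.11, adjusted p = 0.411). With ERCC scaling the log2 fold change was -1.40 (adjusted p = 0.452), which is -2.25 relative to the shift of the median gene. The 36 h libraries came from 105, 115 and 132 sorted cells, and the 24 h libraries from 101, 93 and 100.

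Scrt then rose. At 50 h it was 4.54-fold higher than at 36 h (log2 fold change 2.18 ± 0.43, adjusted p = 0.00368), 1 of 3 members called beside 4.25% of all genes. At 84 h it was 6.08-fold higher than at 36 h (log2 fold change 2.60 ± 0.43, adjusted p = 0.000233), and it passed with ERCC scaling in both comparisons (adjusted p = 0.0203 at 50 h and 0.0123 at 84 h). Means were 21.6 ± 11.1 CPM at 50 h, 28.9 ± 2.59 CPM at 84 h and 4.70 ± 2.07 CPM at 36 h. At 84 h against 24 h scrt did not pass (log2 fold change 0.39, 95% interval -0.42 to 1.20, adjusted p = 0.529), and neither did 50 h against 24 h (-0.03, interval -0.85 to 0.78, adjusted p = 0.969). The interval at 84 h against 24 h reaches 2.30-fold higher, so similar levels at both ages are not shown.

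**Figure D1:**
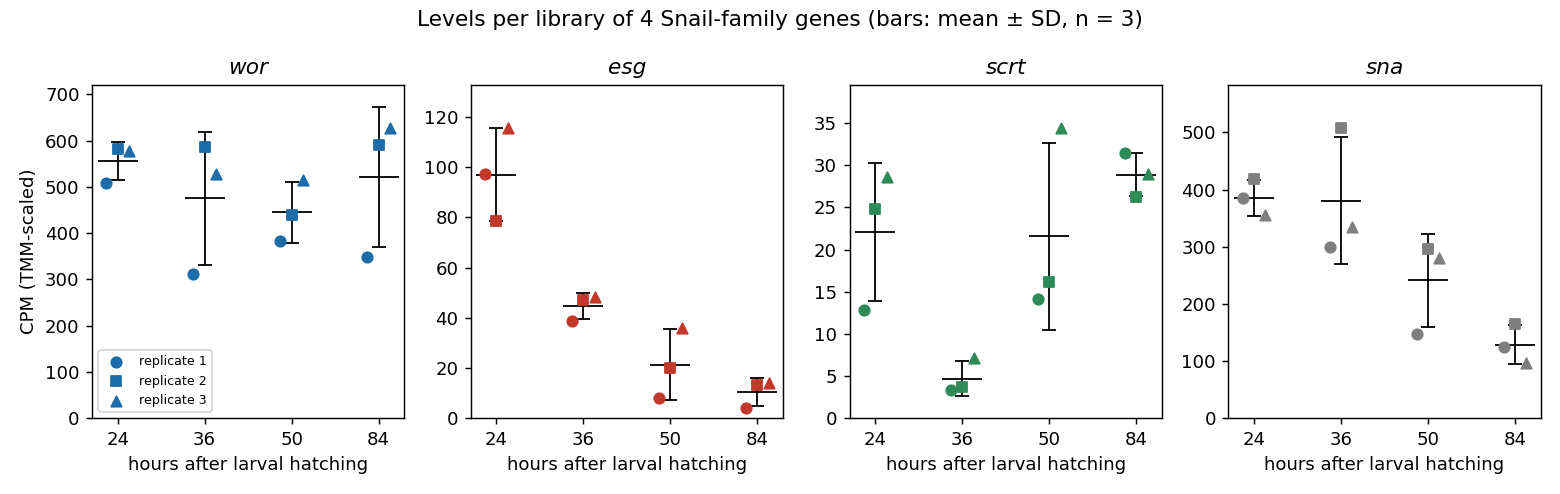
CPM (TMM-scaled, linear axes from 0) of wor, esg, scrt and the related gene sna in each of the 12 libraries by hours after larval hatching, with markers for replicates and bars for mean ± SD (n = 3). The wor ranges overlap at all ages, esg goes down to 3.95 to 14.0 CPM at 84 h, and the 3 scrt values at 36 h, 3.33 to 7.09 CPM, lie below the other 9. Of all genes tested, 16%, 25.3% and 30.1% have no overlap between 36 h and 24, 50 and 84 h in turn, each counted separately and in either direction.

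**Figure D2:**
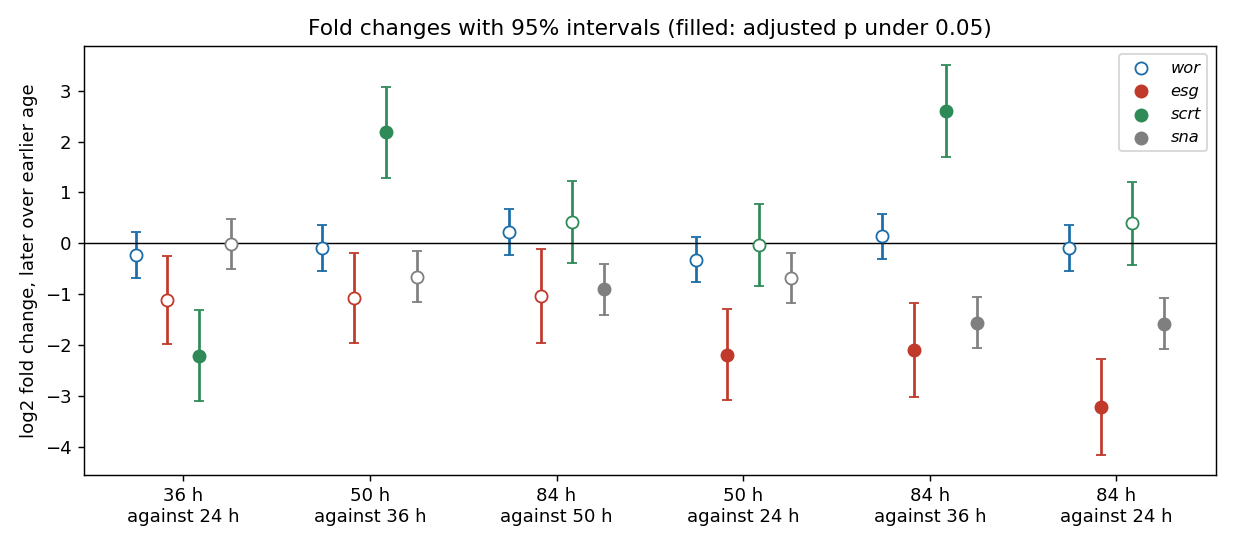
Log2 fold changes of the later over the earlier age with 95% intervals from the edgeR fit for wor, esg, scrt and sna in the 6 comparisons, filled where the adjusted p was under 0.05. All wor points are open, esg is filled and negative in the 3 comparisons that skip an age, and scrt is negative at 36 h against 24 h and positive at 50 h and at 84 h against 36 h.

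Levels of different genes were set side by side in TPM, which divides by transcript length before scaling. Wor had 492 to 631 TPM at 24 h, 325 to 656 TPM at 36 h, 448 to 633 TPM at 50 h and 394 to 768 TPM at 84 h. Esg had 82.6 to 128 TPM at 24 h, 40.4 to 56.6 TPM at 36 h, 8.67 to 43.3 TPM at 50 h and 3.25 to 16.0 TPM at 84 h. Scrt had 2.99 to 7.50, 0 to 0.802, 2.85 to 10.5 and 7.91 to 8.88 TPM at the same ages. By TPM wor was above both other members in every library, and esg above scrt in all but replicate 1 of 84 h, with 3.25 TPM for esg and 8.88 TPM for scrt. By mean TPM wor ranked 203rd, 217th, 239th and 202nd of 15339 genes at 24, 36, 50 and 84 h. Esg ranked 5469th at 84 h and 1138th at 24 h, and scrt between 5977th at 84 h and 9291st at 36 h.

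The TPM of scrt carries a limit at 36 h. In replicate 3 of 36 h the gene had 36 counts but was listed at 0 TPM, as were 17 of the 5781 genes with at least 30 counts in that library. On log2(TPM + 1) with limma, the fall of scrt at 36 h against 24 h did not pass (log2 fold change -2.12, adjusted p = 0.135), and without that library it was -1.86 (adjusted p = 0.35). The rise at 50 h against 36 h was 2.12 on that scale (adjusted p = 0.054), and 1.86 without the library (adjusted p = 0.155). A fold change on the log2(TPM + 1) scale understates the change of low genes.

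Ratios within a library do not depend on its scaling, apart from the 1 TPM added before taking logs. The log2 ratio of esg to wor averaged -2.52 ± 0.31, -3.31 ± 0.33, -4.62 ± 0.86 and -5.85 ± 0.59 at 24, 36, 50 and 84 h (SD, n = 3 each). It differed between ages (exact permutation test of the F statistic over 15400 distinct assignments, p = 0.000195, adjusted p over the 3 pairs of members = 0.000292). Each later age had a lower mean, and the 24 h libraries, at -2.87 to -2.29, did not overlap those of any later age.

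The log2 ratio of scrt to wor averaged -6.52 ± 0.38, -8.43 ± 0.78, -6.39 ± 0.55 and -6.01 ± 0.60 at 24, 36, 50 and 84 h, where the mean at 36 h includes the library listed at 0 TPM for scrt (exact permutation test, p and adjusted p = 0.00883). Scrt to esg gave -4.00 ± 0.53, -5.12 ± 0.64, -1.77 ± 0.39 and -0.16 ± 1.19 at those ages. Its p of 6.49e-05 is the smallest the exact permutation test can give (adjusted p = 0.000195). The 50 h and 84 h libraries all lay above the 24 h and 36 h libraries, and replicate 1 of 84 h, at 1.22, was the 1 library above 0.

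**Figure D3:**
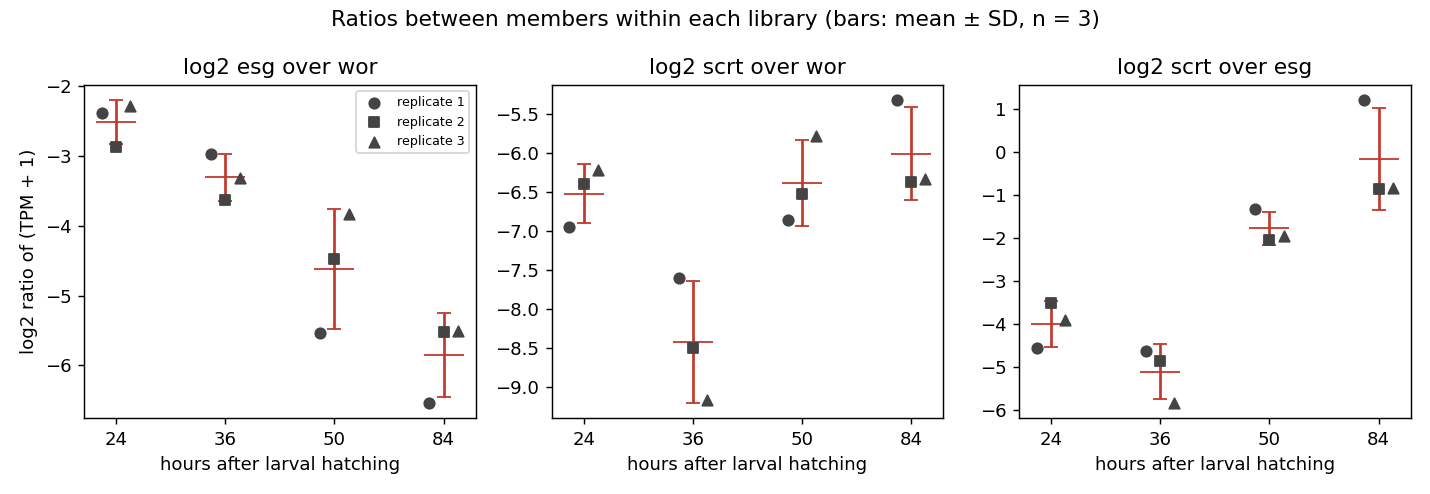
Log2 ratios of (TPM + 1) between esg and wor, scrt and wor, and scrt and esg in each library by hours after larval hatching, with bars for mean ± SD (n = 3). The esg to wor ratio averages -5.85 at 84 h and -2.52 at 24 h, scrt to wor is lowest at 36 h, and scrt to esg averages -0.16 at 84 h.

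The related gene sna, the founding member of the family, was set beside the 3 members. It had 385, 418 and 355 CPM in the 24 h libraries, 300, 507 and 334 CPM at 36 h, 147, 296 and 281 CPM at 50 h, and 124, 165 and 96.4 CPM at 84 h. At 84 h it was 2.99-fold lower than at 24 h (log2 fold change -1.58 ± 0.24, adjusted p = 8.09e-05) and 2.95-fold lower than at 36 h (adjusted p = 0.000146, and 0.636 with ERCC scaling). The step at 84 h against 50 h passed for sna with an adjusted p of 0.0426, but not in 8 of the 12 fits that left out a library, where the adjusted p ran up to 0.276. Relative to the shift of the median gene under ERCC scaling, sna stood at -1.46 at 84 h against 36 h and at -1.48 at 84 h against 24 h, while in the last comparison its log2 fold change itself was 0.00.

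In the summed TPM of wor, sna, esg and scrt, wor held 47.2% ± 1.83, 45.2% ± 4.46, 57.1% ± 7.11 and 73.3% ± 7.68 at 24, 36, 50 and 84 h (SD, n = 3 each). Sna held 44.1% ± 3.04, 50.3% ± 4.51, 39.9% ± 6.44 and 24.4% ± 7.97 at the 4 ages, so its mean part was above that of wor at 36 h. Esg held 8.30% ± 1.78, 4.51% ± 0.88, 2.41% ± 1.28 and 1.24% ± 0.61 at the 4 ages. Scrt held 0.447%, 0.0462% (with 1 library listed at 0), 0.596% and 1.06%. At 84 h, scrt held 1.50%, 0.766% and 0.911% in the 3 libraries and esg 0.550%, 1.47% and 1.701%, so scrt had the larger part in replicate 1 and esg in the other libraries. The sum itself averaged 1223 ± 118, 1138 ± 340, 947 ± 234 and 855 ± 233 TPM at 24, 36, 50 and 84 h. The 2 other genes of the family in the table, CG17181 and CG12605, had at most 25 and 17 counts in any library and did not pass the filter.

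**Figure D4:**
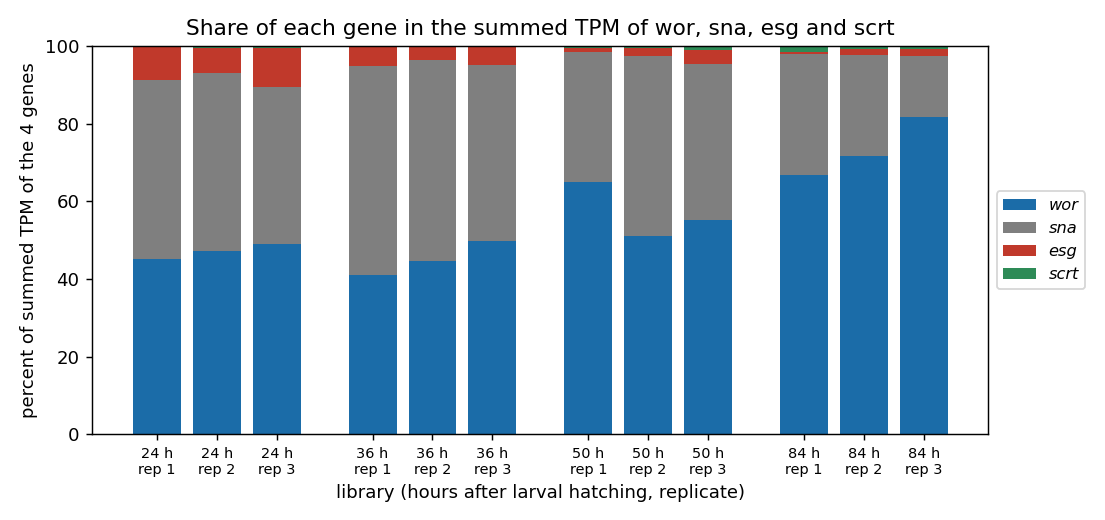
Percent of the summed TPM of wor, sna, esg and scrt that each gene holds in each of the 12 libraries, ordered by hours after larval hatching. The wor part averages 47.2%, 45.2%, 57.1% and 73.3% at 24, 36, 50 and 84 h, and the sna part 44.1%, 50.3%, 39.9% and 24.4%. The esg part averages 1.24% at 84 h and 8.30% at 24 h.

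In the RefSeq annotation of genome release 6, used here only for which genes lie next to each other, esg, wor and sna share chromosome arm 2L, with 7 genes between esg and wor and 5 between wor and sna. Scrt lies on 3L. The genes on either side of esg, nht and CG15258, had 0 counts in every library. Next to wor, CG4161 reached 8.73 CPM at most. Next to scrt, CG43915 had 0 counts in every library, and CG14985 had 11.9 to 20.5 CPM with no difference between ages that passed (adjusted p = 0.970). The sources used here do not say whether counting used strand, so reads of antisense transcripts at these genes cannot be told apart from their own.

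The members were not alike across libraries. Over the 12 libraries, Pearson's r of log2 CPM was 0.435 between wor and esg, 0.296 between wor and scrt and -0.26 between esg and scrt, as a description of points that share library and depth. Sna was closer to esg, with r = 0.846, than to wor, with 0.203, or scrt, with -0.481. The genes most like each member were sought among 5008 genes averaging 10 CPM or more, and genes with a bare CG or CR number for a name were passed over.

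Wor had no gene with r over 0.9 and 5 with r over 0.8. Its nearest were whd, a carnitine palmitoyltransferase (r = 0.881), Pat1 (0.871), GlcAT-S (0.845), Sgf11, a subunit of the SAGA complex (0.802), and Arpc2, a subunit of the Arp2/3 complex (0.797). Whd did not differ between ages past the threshold (adjusted p = 0.297), which its choice by likeness to wor makes likely. Esg had 8 genes with r over 0.9 and 117 over 0.8, led by l(2)s5379 (0.968), the Argonaute-family gene AGO3 (0.944), the ERK kinase rl (0.921), Aldh (0.92) and RASSF8 (0.916). The nearest, l(2)s5379, had 49.1, 54.8 and 53.2 CPM at 84 h and 97.7, 97.2 and 110 CPM at 24 h, a narrower range than that of esg.

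Scrt had 2 genes with r over 0.9 and 18 over 0.8. The nearest was gho, a Sec24 coat protein of secretory vesicles, with r = 0.97. It had 49.2, 73.5 and 64.1 CPM at 24 h, 22.4, 31.3 and 30.1 CPM at 36 h, 46.4, 56.8 and 75.2 CPM at 50 h, and 72.2, 66.2 and 65.7 CPM at 84 h. The 36 h libraries of gho, picked here for its likeness to scrt, also lay below the other 9. Of all genes tested, 16%, 25.3% and 30.1% had no overlap between 36 h and 24, 50 and 84 h in turn, each counted separately and in either direction. Gho differed between ages (edgeR F test, adjusted p = 0.00155), beside 19.5% of all genes, which its choice by likeness to scrt makes likely. After gho came Ncc69, a chloride cotransporter (0.881), VhaM9.7-b, a subunit of the vacuolar proton pump (0.852), vret (0.85) and the arginine methyltransferase Art4 (0.843).

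Snail-family proteins repress through corepressors, and 6 of the 7 listed were in the table and tested. Of these, 2 differed between ages, beside 19.5% of all genes, and 2 were lower at 84 h than at 24 h, beside 10.7% of all genes, with a median log2 fold change of -0.46 over the 6 genes and 0.01 over all genes. Smr, a corepressor that binds histone deacetylase, averaged 977 ± 135, 791 ± 143, 572 ± 64.4 and 537 ± 74.8 CPM at 24, 36, 50 and 84 h (adjusted p = 0.00119). Sbb, a partner of Atrophin in repression, averaged 803 ± 105, 567 ± 127, 430 ± 40.1 and 439 ± 132 CPM (adjusted p = 0.00288). CtBP, which binds a short motif in several Snail-family proteins, averaged 472 CPM at 84 h and 615 CPM at 24 h and did not pass (adjusted p = 0.207). Ebi, gro and the histone deacetylase Rpd3 did not pass either (adjusted p = 0.234, 0.26 and 0.75). With ERCC scaling Smr and sbb no longer passed (adjusted p = 0.319 and 0.385), and with limma on log2(TPM + 1) 0 of the corepressors differed. All 6 corepressors were present beside wor at every age.

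Of 14 transcription factors listed for neural progenitors, 12 were tested and 9 differed between ages, beside 19.5% of all genes. At 84 h against 24 h, 7 were lower and 0 higher, beside 10.7% of all genes lower and 8.16% higher, with a median log2 fold change of -0.76. Tll, an orphan nuclear receptor, averaged 368 ± 50.8, 331 ± 53.6, 298 ± 55.7 and 151 ± 38.0 CPM at 24, 36, 50 and 84 h (adjusted p = 0.000249). SoxN, a Sox-family factor, averaged 749 ± 170, 355 ± 131, 354 ± 51.9 and 327 ± 44.6 CPM (adjusted p = 0.000254). Hth, a homeodomain factor, was lowest at 84 h (196 ± 36.2 CPM, adjusted p = 0.000517), and grh averaged 687 ± 18.4 CPM at 84 h and 1081 ± 149 CPM at 24 h (adjusted p = 0.00322). With ERCC scaling tll, SoxN and grh no longer passed (adjusted p = 0.102, 0.374 and 0.326). Beside these, wor had a log2 fold change of -0.09 and esg of -3.22 at 84 h against 24 h.

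In embryonic neuroblasts the Snail family is known to act on asymmetric division through insc and on the division cycle through the Cdc25 phosphatase stg. Insc, chosen here for that link after its values were seen, averaged 54.8 ± 5.81, 46.3 ± 19.3, 70.4 ± 6.85 and 54.5 ± 10.5 CPM at 24, 36, 50 and 84 h and did not pass (adjusted p = 0.309). Stg averaged 315 ± 22.1, 341 ± 45.4, 839 ± 127 and 494 ± 61.9 CPM (adjusted p = 1.29e-06), with its highest libraries at 50 h. Of 22 listed genes of asymmetric division and Cdc25, 20 were tested and 7 differed between ages, beside 19.5% of all genes. At 84 h against 24 h, 2 were higher and 2 lower, beside 8.16% of all genes higher and 10.7% lower (median log2 fold change -0.03). Stau, an RNA-binding protein, averaged 3832 ± 401 CPM at 84 h and 2090 ± 255 CPM at 24 h (adjusted p = 9.06e-05 over the 4 ages). The kinase aPKC averaged 116 ± 10.6 CPM at 84 h and 196 ± 38.0 CPM at 24 h (adjusted p = 0.00856, and 0.214 with ERCC scaling). Among 11 proneural and related bHLH genes, 7 were tested and 2, da and emc, differed between ages (adjusted p = 0.0471 and 0.00425), beside 19.5% of all genes. The call of da was lost in 9 of 12 fits that left out a library.

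Larval neuroblasts pass from an early state marked by Imp to a late state marked by Syp, both RNA-binding proteins. Of 13 tested temporal factors, 12 differed between ages, beside 19.5% of all genes. Imp averaged 228 ± 49.9 CPM at 84 h and 58992 ± 15241 CPM at 24 h, and Syp 25560 ± 6531 CPM at 84 h and 602 ± 130 CPM at 24 h (adjusted p = 2.86e-15 and 7.82e-11 over the 4 ages). Imp was listed at 0 TPM in every 84 h library, though these had 1643, 1229 and 1249 counts of it. Syp had no TPM under its symbol. The RNA-binding protein lin-28 averaged 148, 95.9, 1.98 and 0.595 CPM at 24, 36, 50 and 84 h (adjusted p = 7.59e-13), and the nuclear receptor svp 662, 199.7, 108 and 147 CPM (adjusted p = 2.53e-08, and 0.501 with ERCC scaling). The low level of scrt at 36 h had no counterpart in the means of either gene, which ran in 1 direction up to 50 h.

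Markers of other cell types were summed per library. The 18 neuron markers summed to 398 to 507 CPM at 24 h, 333 to 484 CPM at 36 h, 399 to 497 CPM at 50 h and 388 to 489 CPM at 84 h. Of these, 4 of 12 tested differed between ages, beside 19.5% of all genes. Elav, the pan-neuronal RNA-binding protein, averaged 220 ± 25.5, 187 ± 36.2, 210 ± 33.3 and 310 ± 53.1 CPM at 24, 36, 50 and 84 h (adjusted p = 0.0196, and 0.14 and 0.1 without replicate 2 or 3 of 84 h). Fne averaged 171, 166, 138 and 95.2 CPM (adjusted p = 0.00698, and 0.0937 with ERCC scaling). The active zone protein brp averaged 1.98 ± 1.26, 2.34 ± 2.02, 12.96 ± 10.7 and 1.42 ± 0.53 CPM (adjusted p = 0.0123, and 0.309 without replicate 1 of 50 h). The sodium channel para averaged 0.491 ± 0.375, 2.77 ± 2.07, 5.45 ± 3.96 and 0.331 ± 0.176 CPM (adjusted p = 0.0244, and 0.0529 to 0.153 without replicate 2 or 3 of 50 h or replicate 1 or 2 of 84 h). Both were highest at 50 h, the age at which scrt was again above its 36 h level. At 84 h brp and para had their lowest means, 1.42 and 0.331 CPM, while scrt had its highest, 28.9 CPM. The synaptic markers n-syb and Syt1, which did not pass, averaged at most 3.88 and 3.98 CPM at any age. Scrt was low in the 36 h libraries, where the neuron sum was also at its lowest in 1 library, but the ranges of that sum overlapped at all ages. Most of that sum was elav and fne, so it says little of the other neuron markers. Over the 12 tested, the median log2 fold change was -0.14 at 36 h against 24 h, with -0.01 over all genes. It was 0.87 at 50 h against 36 h and -1.13 at 84 h against 50 h, with 0.03 and -0.01 over all genes. The part of neurons in the course of scrt was not tested.

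Markers of intermediate progenitors and ganglion mother cells summed to 81.3 to 163 CPM at 24 h, 95.3 to 161 CPM at 36 h, 234 to 259 CPM at 50 h and 131 to 165 CPM at 84 h over 13 genes. Of these, 4 of 8 tested differed, beside 19.5% of all genes. Nerfin-1, a zinc-finger factor of newly born neurons, averaged 5.16 ± 3.85 CPM at 24 h, 0.893 ± 0.679 CPM at 36 h, 24.3 ± 4.87 CPM at 50 h and 5.53 ± 3.24 CPM at 84 h (adjusted p = 9.81e-05), with its lowest mean at 36 h. The other 3 that differed had no low at 36 h: D averaged 27.0, 46.0, 76.1 and 4.86 CPM at 24, 36, 50 and 84 h (adjusted p = 3.18e-07), ey 3.96, 9.51, 17.4 and 36.2 CPM (adjusted p = 0.00247) and pros 34.0, 41.4, 92.1 and 62.8 CPM (adjusted p = 0.0135, and 0.0529 and 0.0816 without replicate 3 of 24 h or replicate 1 of 50 h). The part of such cells in the result for scrt was not tested. The 12 glia markers summed to 446 to 591 CPM at 24 h, 583 to 694 CPM at 36 h, 525 to 601 CPM at 50 h and 437 to 495 CPM at 84 h. Of these, 2 of 7 tested differed between ages, beside 19.5% of all genes. The glutamate transporter Eaat1 averaged 163 ± 34.3, 255 ± 32.5, 208 ± 15.7 and 93.6 ± 3.03 CPM (adjusted p = 1.41e-05), highest at 36 h and lowest at 84 h. Loco averaged 47.4 ± 8.14, 36.9 ± 8.52, 29.6 ± 1.26 and 56.5 ± 10.00 CPM (adjusted p = 0.0314, a call lost without any 1 library of 50 h or replicate 1 or 3 of 84 h). The pan-glial factor repo, which did not pass the filter, averaged at most 1.89 CPM, at 24 h, where replicate 2 had 5.52 CPM. The glia marker moody was also highest in that library, with 5.37, 31.0 and 6.39 CPM at 24 h. Moody did not differ between ages past the threshold (edgeR F test, adjusted p = 0.145). The intermediate progenitor markers erm, ham and opa averaged at most 1.26, 1.09 and 1.40 CPM. The highest glia sums were at 36 h, overlapping those of 24 h and 50 h, and scrt was lowest at 36 h, and the part of glia in that result was not tested.

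Esg is also expressed in tracheal and imaginal disc cells. The 13 markers of these tissues summed to 1026 to 1684 CPM at 24 h, 766 to 1117 CPM at 36 h, 982 to 1025 CPM at 50 h and 736 to 852 CPM at 84 h. Of these, 3 of 10 tested differed, beside 19.5% of all genes. Most of the sum was ct, a homeodomain factor also found in neural cells, which averaged 992 ± 303, 692 ± 138, 634 ± 58.2 and 438 ± 86.4 CPM (adjusted p = 0.00145, and 0.123 with ERCC scaling). The disc gene vg ran the other way, with 7.64 ± 4.79 CPM at 84 h and 0.264 ± 0.334 CPM at 24 h (adjusted p = 0.000128). The POU factor vvl averaged 159 ± 23.6, 93.2 ± 25.5, 147 ± 42.8 and 114 ± 20.5 CPM at 24, 36, 50 and 84 h (adjusted p = 0.0416, a call lost in 5 of the 12 fits that left out a library). The part of such cells in the fall of esg was not tested. Hemocyte and fat body markers summed to 50.9 to 103 CPM over 10 genes, 1 of them, Fbp2, at 0 counts in every library, and muscle markers to 29.9 to 108 CPM over 8 genes. In each of these lists 1 of 3 tested genes differed between ages, ppl and sls (adjusted p = 0.0423 and 0.0362), beside 19.5% of all genes. The calls of ppl and sls were lost in 11 and 6 of the 12 fits that left out a library.

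**Figure D5:**
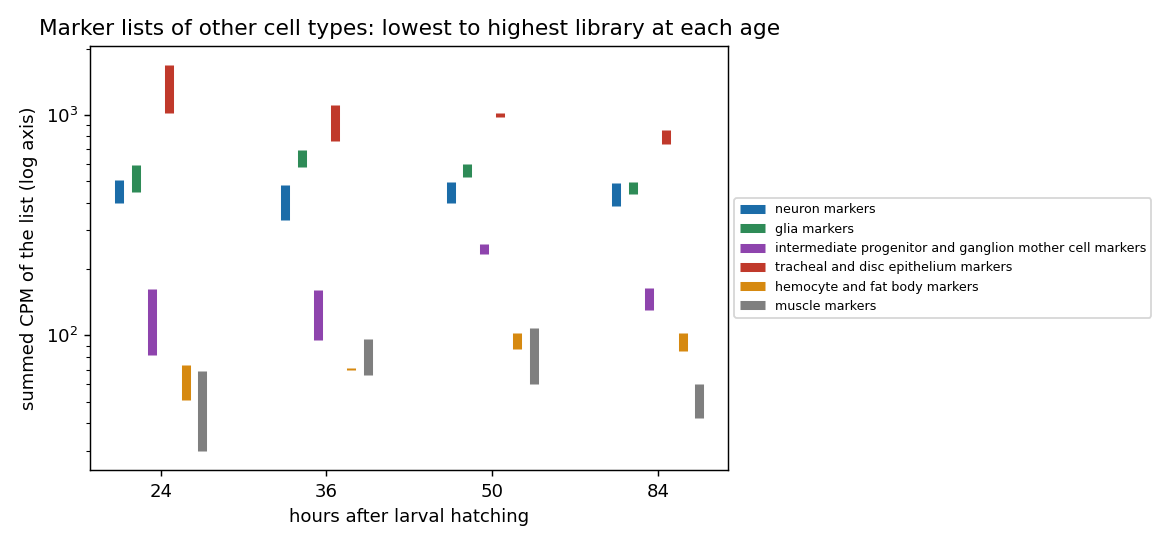
Summed CPM (log axis) of 6 marker lists of other cell types by hours after larval hatching, each bar running from the lowest to the highest of the 3 libraries at that age. The neuron sums, mostly elav and fne, overlap at all ages. The sums of intermediate progenitor and ganglion mother cell markers are highest at 50 h, 234 to 259 CPM, and the highest glia sum is at 36 h, 694 CPM.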

How the data were processed

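The authors deposited gene counts per gene symbol and ERCC spike-in RNA, made with HTSeq 0.6.1p1 after cutadapt 1.7.1, Bowtie2 2.1.0 and STAR 2.4.0i, per the submitters' processing notes, which give no order and name the builds mm10, dm3 and BDGP5. They also deposited a TPM table, and the sources used here do not say how it was made. RNA from pooled cells was amplified before library construction, per the labels' protocols, which can widen the spread of low counts.

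Counts were tested with edgeR 4.0.16 (R 4.3.3): TMM factors, filterByExpr by age, a robust quasi-likelihood fit of all 12 libraries (8 residual degrees of freedom) and Benjamini-Hochberg adjustment over 7978 genes in each comparison, with a threshold of 0.05. ERCC rows and 1 row with no symbol (at most 8.87e-05% of counts) stayed out. Total gene counts per library were 4512098 to 8391731, ERCC counts 0.120 to 0.939% of all counts, and the biological coefficient of variation 36.2%. Ratios between members used log2(TPM + 1) and an exact permutation test. DESeq2 1.42.0, limma 3.58.1, ERCC scaling and other settings were alternatives. Ages and replicate numbers came from the sample titles.

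Wor, esg and scrt were always named, as were all Snail-family and corepressor genes, up to 4 genes of each other list with the lowest adjusted p for any difference, the 5 most correlated genes of each member, neighbouring genes, and defining markers of the labelled and of other cell types. The members and lists were chosen with earlier results of these data known.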

Additional observations from a re-analysis of the deposited data

How the results depend on the processing

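Of 680 values of 32 results under the alternatives, 583 kept their direction and side of the threshold or, for counts of genes, stayed within 1.5 times the main count. The cause of the other moves was not tested. With ERCC scaling, the log2 fold changes of wor were 0.62 (36 h over 24 h), 0.90 (50 h over 36 h), -0.048 (84 h over 50 h), 1.52 (50 h over 24 h) and 1.48 (84 h over 24 h), all of opposite sign to the main values. Relative to the shift of the median gene under that scaling, they were -0.23, -0.20, 0.43, -0.45 and 0.00. Esg then had an adjusted p of 0.19 for any difference and -0.74, -1.31 and -1.64 at 50 h over 24 h, 84 h over 36 h and 84 h over 24 h, scrt -1.40 at 36 h over 24 h and 1.59 at 50 h over 24 h, and 2780, 20, 148, 33, 5247, 115 and 2377 genes were called for any difference and for 36 h over 24 h, 50 h over 36 h, 84 h over 50 h, 50 h over 24 h, 84 h over 36 h and 84 h over 24 h, against 1556, 72, 339, 244, 1310, 766 and 1504 in the main count. Sna reversed with ERCC scaling at 36 h over 24 h (0.84), 50 h over 36 h (0.20) and 50 h over 24 h (1.04), which is -0.02, -0.90 and -0.93 relative to that shift, and at 36 h over 24 h, where it was -0.02, also with sorted cells as a covariate (0.39), with limma on TPM (0.043) and the same without replicate 3 of 36 h (0.086), and over the leave-outs it ran from -0.28 to 0.13.

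With no filter on low counts, esg passed at each step (log2 fold changes -1.11, -1.089 and -1.02), and 247 and 541 genes were called at 36 h over 24 h and 50 h over 36 h. DESeq2 called 198 and 528 there. With sorted cells as a covariate, scrt was -2.11 at 36 h over 24 h and 0.013 at 50 h over 24 h, and 23 and 721 genes were called in those comparisons. With limma on log2(TPM + 1), wor was 0.085 at 50 h over 36 h and 0.079 at 84 h over 24 h, scrt -2.12, 2.12 and 0.004 at 36 h over 24 h, 50 h over 36 h and 50 h over 24 h, with or without a filter. With 0.1 added instead, wor had the same 2 values and scrt fell by 3.69 at 36 h over 24 h. Genes called at 36 h over 24 h were then 34, 24 without a filter and 31 with 0.1 added, at 84 h over 50 h 119, 104 and 108, and at 50 h over 36 h 184 without a filter. Listed genes called for any difference, each counted once over all lists but the Snail family, were 26, 21 and 24, against 45. The same without replicate 3 of 36 h, chosen after seeing the data, gave wor 0.19 and 0.079, esg -2.148 at 84 h over 36 h, scrt an adjusted p of 0.0613 for any difference and -1.86, 1.86 and 0.004, and 12, 104, 104 and 507 genes called at 36 h over 24 h, 50 h over 36 h, 84 h over 50 h and 84 h over 36 h, with 25 listed genes.

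Leaving out each library in turn, the log2 fold change of wor ran from -0.40 to 0.002 at 36 h over 24 h, -0.33 to 0.073 at 50 h over 36 h, -0.09 to 0.36 at 84 h over 36 h and -0.24 to 0.13 at 84 h over 24 h. Esg ran from -1.70 to -0.68 at 50 h over 36 h and -1.43 to -0.41 at 84 h over 50 h, and scrt from -2.64 to -1.98 at 36 h over 24 h and -0.54 to 0.20 at 50 h over 24 h. Genes called ran from 29 to 180 at 36 h over 24 h, 157 to 444 at 50 h over 36 h, 109 to 263 at 84 h over 50 h, 823 to 1464 at 50 h over 24 h, 475 to 870 at 84 h over 36 h and 938 to 1598 at 84 h over 24 h. The main fit did not treat replicate numbers as pairs. Of 18 same-numbered pairs, 3 had deviations correlated over 0.1 (median 0.037, and -0.016 between other numbers). Of the 12 libraries, 7 correlated best with their own number. Whether same-numbered libraries share a batch was not tested. With replicate number as a block, esg passed at 50 h over 36 h (-1.236) and 119 genes were called at 36 h over 24 h. Low counts limit scrt at 36 h and esg at 84 h most.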
